A study of Homo sapiens with 4 samples.

Results

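The H3K27me3 library of MCF10A is 1 chromatin immunoprecipitation sequencing (ChIP-seq) library, and its deposited peak list is described here on chromosomes 1 to 22. All 353923 peaks of that list on these chromosomes are members, which is 89.98% of the 393324 peaks in the list, and no peak was chosen by its fold, p or q. The 3 peak lists of the series, for H3K27me3, H3K4me3 and H3K79me2, hold 574098 peaks in all. MCF10A is an established, immortalised line of human mammary epithelium with basal features that does not form tumours. Per the labels, all cells were kept in MEGM, a growth medium for mammary epithelium, to which cholera toxin had been added at 100 ng/ml, and no other treatment or genotype is given. Each of the 3 marks has 1 library and there are no replicates, so every value below is a description of that library, with no test and no error estimate. The input DNA library of the series has no peak list analysed here, and read depth cannot be read from peak lists.

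H3K27me3 is trimethylation of lysine 27 of histone H3. It is laid down by the Polycomb repressive complex PRC2 through its catalytic subunits EZH2 and EZH1, and the subunit EED binds the finished mark, which helps it spread along a chromosome. In differentiated cells it is known from promoters of silent developmental regulators, where it sits on CpG-rich sequence, and from broad stretches of low signal over silent genes and the stretches between genes. H3K4me3 marks promoters, and H3K79me2, written by DOT1L, marks the transcribed part of active genes. Both serve below to describe the same windows.

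Of the protein-coding genes in the 10 most covered 1 Mb windows or the 10 longest domains described below, ESRRG, EYA4 and FOXP2 were taken for their promoter sequence. ESRRG encodes an orphan nuclear receptor, EYA4 a transcriptional coactivator and phosphatase of sense organ development, and FOXP2 a forkhead transcription factor of the brain. In each, all 250 bases before 1 annotated start lay inside H3K27me3 peaks and 0 lay in H3K4me3 peaks. Such promoters were few. With promoters taken as 250 bases before to 50 after a start, 40 annotated starts of 16 of these genes were examined, of which 4 lay wholly in H3K27me3 peaks and 31 had no base in them. The fourth, that of PTPRD, lay wholly in H3K4me3 peaks too and is not shown, since ties were taken by position. ESRRG has 8 annotated starts, of which 1 lay wholly in H3K27me3 peaks and 6 had none. ZNF722, a zinc finger gene of a sparsely covered window, is shown for contrast, with 0 of 250 bases in peaks of either mark. The sequences come from RefSeq on GRCh38.p14, run 5′ to 3′ on the strand of the gene, and have each CG dinucleotide in capitals, since CpG-rich promoters are known Polycomb targets. They lie at chr1:216723430-216723679 on the minus strand (ESRRG), chr6:133241107-133241356 (EYA4), chr7:114426252-114426501 (FOXP2) and chr7:63998599-63998848 (ZNF722), the last 3 on the plus strand. The starts of ESRRG, EYA4 and FOXP2 shown here lie inside the gene record.
ESRRG: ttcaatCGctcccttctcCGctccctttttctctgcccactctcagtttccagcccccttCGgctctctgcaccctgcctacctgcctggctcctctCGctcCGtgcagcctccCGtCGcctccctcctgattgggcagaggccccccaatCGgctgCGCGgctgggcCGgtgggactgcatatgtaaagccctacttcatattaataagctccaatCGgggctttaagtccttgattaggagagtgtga
EYA4: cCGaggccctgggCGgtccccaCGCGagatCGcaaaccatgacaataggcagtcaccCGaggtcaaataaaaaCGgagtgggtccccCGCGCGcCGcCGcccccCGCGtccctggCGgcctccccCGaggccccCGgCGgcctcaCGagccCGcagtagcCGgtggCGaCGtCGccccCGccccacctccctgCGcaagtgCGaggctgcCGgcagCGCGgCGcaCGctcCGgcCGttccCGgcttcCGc
FOXP2: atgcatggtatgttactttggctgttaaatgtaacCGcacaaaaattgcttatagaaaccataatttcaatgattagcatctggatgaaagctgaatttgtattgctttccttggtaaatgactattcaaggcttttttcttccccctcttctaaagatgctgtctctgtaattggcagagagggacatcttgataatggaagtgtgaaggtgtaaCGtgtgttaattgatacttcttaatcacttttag
ZNF722: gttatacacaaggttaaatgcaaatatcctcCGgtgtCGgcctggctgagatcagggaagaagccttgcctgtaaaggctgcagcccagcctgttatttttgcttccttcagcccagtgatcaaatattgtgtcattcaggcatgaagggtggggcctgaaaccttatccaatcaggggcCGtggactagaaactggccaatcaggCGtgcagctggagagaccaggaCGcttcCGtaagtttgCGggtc
The stretch of EYA4 holds 36 CG dinucleotides at 75.2% G and C, and that of ESRRG holds 12 at 58.8%. The stretch of FOXP2 holds 2 at 35.6%, so the promoters wholly inside H3K27me3 peaks ranged from CpG-rich to CpG-poor. ZNF722 has 7 at 52%. Over 21156 stretches of the same length before protein-coding starts in the same table, the median was 17 CG dinucleotides, 96.8% held at least 1 and 65.8% held at least 10.

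The library was made of many short peaks that stood close together. The median H3K27me3 peak was 214 bp wide, against 851 bp for H3K4me3 and 669 bp for H3K79me2. The narrowest was 165 bp, the quartiles were 168 and 308 bp, and the widest was 7191 bp. Peaks under 300 bp made up 73.6% of the list, 1.23% reached 1000 bp and 17 peaks reached 5000 bp. The list was deposited in the layout of narrow peaks and those of the other marks in the layout of broad peaks, and how much this contributes to the difference in width and spacing was not tested. Together the H3K27me3 peaks covered 98.9 Mb, close to the 97.0 Mb of H3K4me3 and less than the 306 Mb of H3K79me2.

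The gap to the next H3K27me3 peak had a median of 903 bp, against 2213 bp for H3K79me2 and 16419 bp for H3K4me3. Gaps of up to 500 bp made up 36.9% of H3K27me3 gaps and 0% in both other lists. Gaps of up to 3000 bp made up 71.7% for H3K27me3, 56.6% for H3K79me2 and 15.9% for H3K4me3, while gaps over 100000 bp made up 1.298%, 5.29% and 9.47%. In the lists as deposited, H3K27me3 peaks lay nearest to each other among the 3 at every one of these distances. The other 2 lists have a floor, with no H3K79me2 gap up to 562 bp and no H3K4me3 gap up to 631 bp. The comparison at 500 bp lies below both floors and so says nothing of how the marks themselves are spaced. Whether the floors come from the layout of broad peaks was not tested.

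**Figure D1:**
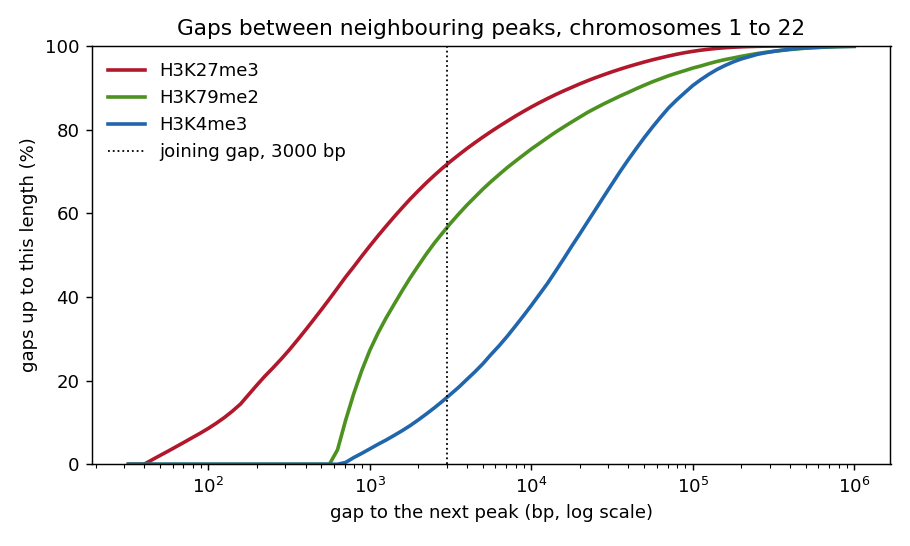
Cumulative share of gaps between neighbouring peaks (vertical axis, %) up to the length on the horizontal axis (bp, log scale) for the 3 marks on chromosomes 1 to 22. The H3K27me3 line lies above the others and reaches 71.7% at the joining gap of 3000 bp, which the dotted line marks.

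Density was taken as the share of bases inside H3K27me3 peaks in complete 1 Mb windows counted from the first base of each chromosome. Of 2864 such windows, 161 lay for 50% or more of their length in stretches of at least 100 kb free of peaks of all 3 lists, and were set aside. Of these 161 windows, 102 held no H3K27me3 peak. The other 2703 windows held 350773 peaks, the set-aside windows 881 and the incomplete last windows of the chromosomes 2269. Without a genome sequence, gaps in the assembly and bases where short reads cannot be placed could not be told apart from bases without signal.

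Most windows were thinly covered and a few held much of the mark. The median window had 1.68% of its bases in H3K27me3 peaks and 70 peaks, and windows ranged from 0.0861% to 44.9% and from 5 to 1067 peaks. The 10th and 90th percentiles, 0.383% and 9.69%, stood 25.3-fold apart, against 275.8-fold for H3K79me2 and 17.9-fold for H3K4me3. The 10% of windows with most covered bases, from 9.70% upwards, held 43.0% of all covered bases and 38.3% of peaks, while the 10% with fewest, up to 0.383%, held 0.808% and 1.19%. The variance of the peak number across windows was 175 times its mean, against 27.6 times for H3K79me2 and 9.43 times for H3K4me3. H3K27me3 was thus the most uneven of the 3 lists in peak number by this measure, which also rises with the number of peaks, and H3K79me2 the most uneven in covered bases by the percentiles.

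Neighbouring windows were moderately alike in coverage. Across 2646 pairs of neighbouring windows, Spearman's rho of covered bases was 0.42 for H3K27me3, 0.46 for H3K4me3 and 0.34 for H3K79me2, given as a description of windows that share a library and large genes. The neighbour with more covered bases had a median of 2.13 times those of the other, and 217 pairs (8.20%) differed 10-fold or more. The 270 windows of the top 10% fell into 183 runs, with 143 windows (53.0%) in runs of 2 or more. The longest run was 8 windows at chr6:92000001-100000000, with a mean of 17.4% covered, which holds EPHA7, an ephrin receptor gene, FUT9, a fucosyltransferase gene, and KLHL32. A run of 6 windows at chr8:109000001-115000000 averaged 30.5% and holds CSMD3, a very large gene of a neuronal membrane protein. Runs of 5 windows lay at chr9:8000001-13000000 over the receptor phosphatase gene PTPRD, at chr5:84000001-89000000 over EDIL3 and MEF2C, and at chr7:49000001-54000000 over COBL, GRB10 and IKZF1. The mean coverage of these 3 runs was 18.6%, 15.1% and 14.7%.

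The 271 windows of the bottom 10% formed 163 runs, with 166 windows (61.3%) in runs of 2 or more. The longest were 8 windows each and both lay on chromosome 4. That at chr4:29000001-37000000 averaged 0.296% and holds the protocadherin gene PCDH7 and ARAP2, and that at chr4:58000001-66000000 averaged 0.270% and holds the adhesion receptor gene ADGRL3 and the ephrin receptor gene EPHA5. The ephrin receptor genes EPHA7 and EPHA5 thus lay in the longest runs at opposite ends of the scale.

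Windows were called gene-poor with 0 to 2 midpoints of protein-coding genes, middle with 3 to 9 and gene-rich with 10 or more. Gene-poor windows were both the most and the least covered. Their median was 1.07% of bases, below the 1.77% of middle and the 2.06% of gene-rich windows, while their mean of 4.27% lay above the means of 3.37% and 3.14%. The upper quartile ran the other way from the median, at 5.48% in gene-poor, 4.22% in middle and 4.09% in gene-rich windows. The spread of peak numbers narrowed with gene number, with a variance of 265, 124 and 82.0 times the mean.

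Over all kept windows, 9.4% reached a coverage of 10% and 16.4% stayed under 0.5%. Of 927 gene-poor windows, 143 (15.4%) reached 10% and 276 (29.8%) stayed under 0.5%. Of 1157 middle windows, 86 (7.43%) and 131 (11.3%) did so. Of 619 gene-rich windows, 25 (4.04%) and 36 (5.82%) did so. Both ends of the scale were therefore better filled among gene-poor windows, and 40 of the 53 windows with at least 20% coverage were gene-poor. The 334 windows with no gene midpoint were more often sparse, with a median of 0.573% and 146 (43.7%) under 0.5%. At 10% coverage or more they had no larger share than the gene-poor class as a whole, with 47 windows (14.1%), and their mean was 3.78%. At 20% or more their share was slightly larger, with 17 windows (5.09%) against 4.31% of the gene-poor class.

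Gene-poor windows were 34.3% of the kept windows and held 40.5% of the H3K27me3 peaks and 40.4% of their covered bases. Gene-rich windows were 22.9% of the kept windows and held 19.5% of peaks and 19.8% of covered bases. The 2 other marks were spread differently, with a median of 0.797% for H3K4me3 and 0.232% for H3K79me2 in gene-poor windows and of 6.51% and 19.1% in gene-rich windows. Across the 2703 windows, Spearman's rho of H3K27me3 coverage was 0.14 with the number of genes, −0.03 with H3K4me3 coverage and −0.05 with H3K79me2 coverage. Within gene-rich windows rho with H3K79me2 was −0.41, within middle windows −0.24 and within gene-poor windows −0.04, so the windows with more H3K79me2 had less H3K27me3 mainly where genes were many.

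The difference between the medians did not keep its sign in a stricter choice of windows. The difference of gene-poor minus gene-rich medians was −0.991 percentage points over the kept windows and 1.41 over the 2194 windows with no peak-free stretch of 100 kb, a reversal of sign. That choice keeps 550 of 927 gene-poor and 595 of 619 gene-rich windows, and since it removes windows by their lack of peaks it removes sparse gene-poor ones by construction. The difference of means was 1.13 points and became −0.0452 when peaks under 5-fold were left out. Within single chromosomes, the gene-poor median was the lower one on 18 of 22 chromosomes, and the gene-poor mean was the higher one on 14.

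**Figure D2:**
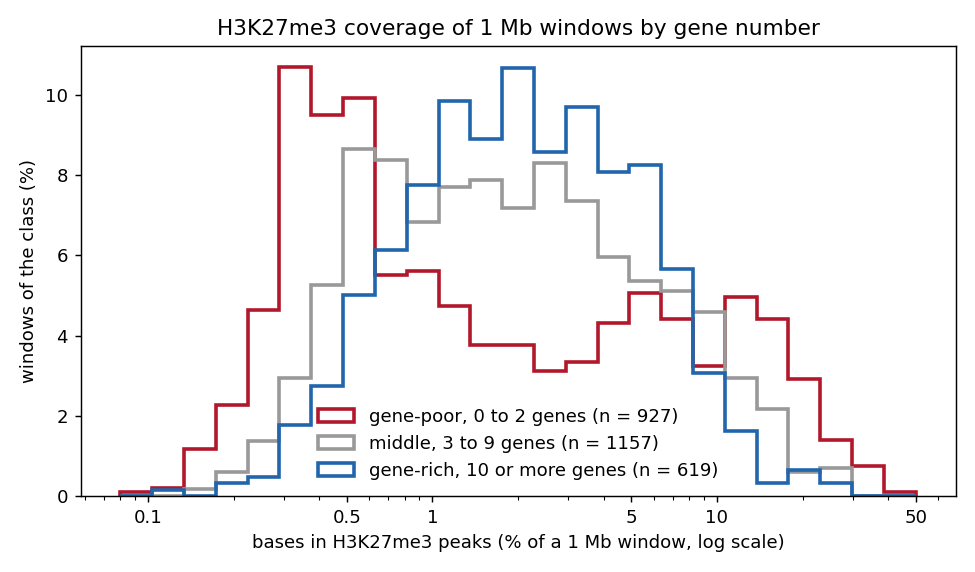
Share of windows (vertical axis, % of the class) by the bases in H3K27me3 peaks (horizontal axis, % of a 1 Mb window, log scale), with 1 line for each class of gene number. The gene-poor line has a high shoulder under 0.5% covered, where 29.8% of its windows lie, and a second one above 10%, where 15.4% lie.

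Protein-coding gene records held 39.5% of the bases in H3K27me3 peaks, while they made up 44.3% of the windows' bases. For H3K4me3 the share inside genes was 65.6% and for H3K79me2 92.0%. In gene-poor windows, 34.4% of H3K27me3 bases lay in gene records, which took 26.8% of those windows. In gene-rich windows, 42.6% of H3K27me3 bases lay in records that took 59.3%. The mark thus lay inside genes more than their length share where genes were few and less where genes were many.

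Peaks were joined into domains wherever the gap between them was 3000 bp or less, and a domain was kept if it spanned 10000 bp or more and peaks filled 25% or more of it. This gave 4670 domains with 142357 peaks, 40.2% of all peaks and 49.9% of covered bases. A median domain was 19286 bp long, held 21 peaks and was filled to 34.9%. By the same joining, H3K79me2 gave 8325 domains with a median of 5 peaks and 81.0% filled, and H3K4me3 gave 1220 with a median of 3 peaks and 75.6% filled. H3K27me3 domains were thus strings of many narrow peaks with open space between them. The widest H3K27me3 peak was shorter than the minimum length of a domain, so each domain had to hold several peaks, while 323 domains of H3K79me2 and 107 of H3K4me3 were a single peak.

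The number of domains moved strongly with the joining gap, from 364 at 500 bp to 4670 at 3000 bp and 948 at 10000 bp, with the minimum length and filled share kept. Before those minimums, joining across up to 500 bp turned the 353923 peaks into 223315 clusters, across 1000 bp into 169217, across 3000 bp into 100294 and across 10000 bp into 51708. At 3000 bp, 17.1% of peaks stayed single and 15.3% lay in clusters of 50 or more. At 10000 bp, 49.4% lay in clusters of 50 or more, and the largest cluster held 1895 peaks over 2015991 bp. At 3000 bp, 71.8% of H3K4me3 peaks and 27.4% of H3K79me2 peaks stayed single, so H3K27me3 peaks were the least often alone.

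Domains were more numerous and longer where genes were few. Per 100 windows there were 205 domains in gene-poor, 159 in middle and 144 in gene-rich windows, with median lengths of 21589, 18733 and 17034 bp. The domains held 46.5%, 37.6% and 32.9% of the peaks of those windows. Even so, 62.0% of gene-poor windows held no domain midpoint, against 54.6% of middle and 48.1% of gene-rich windows, so the domains of gene-poor windows were packed into fewer of them. No protein-coding gene was touched by 2489 domains (53.3%), and 1361 (29.1%) lay wholly inside one. H3K79me2 peaks were absent from 4320 domains (92.5%) and H3K4me3 peaks from 3807 (81.5%). Domains of at least 100 kb numbered 89, of which 29 touched no protein-coding gene.

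The longest domain lay inside CSMD3 at chr8:112826680-113083049, with 256370 bp, 316 peaks and 59.4% of its length in peaks. CSMD3 had 29.0% of its whole record in H3K27me3 peaks, 0.414% in H3K4me3 and 0.498% in H3K79me2. The next in length lay inside PDE4D, a cyclic AMP phosphodiesterase gene, at chr5:59815512-60042147 with 226636 bp and 249 peaks. PDE4D had 13.3% of its 1553 kb record in H3K27me3 peaks and 35.7% in H3K79me2 peaks, and the domain itself held 0 bases of H3K79me2, so the H3K79me2 of this gene lay outside the domain. SGCZ, which encodes a sarcoglycan, held the third domain at chr8:14448161-14674712 with 226552 bp and 279 peaks, and another reached into it at chr8:15098487-15265602 with 167116 bp. Over its whole record SGCZ had 33.7% in H3K27me3 peaks and 0.0130% in H3K79me2.

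The fourth domain, chr3:62366843-62552834, ran over FEZF2, a transcription factor gene of forebrain neurons, and part of CADPS, a gene of secretory vesicle priming. It was 185992 bp long and the best filled of the 10 longest, at 65.6%. The next, chr4:111633325-111815352, touched no protein-coding gene and was the least filled of the 10, at 30.6% of 182028 bp. EYA4 held a domain of 180938 bp at chr6:133288892-133469829, filled to 61.4%, and 56.4% of the whole EYA4 record lay in H3K27me3 peaks. PREX2, an exchange factor gene of Rac signalling, held 171505 bp at chr8:68004892-68176396. PTPRD held 169872 bp at chr9:10173467-10343338, and FOXP2 shared 164136 bp at chr7:114065744-114229879 with the stretch beside it. Of the 10 longest domains, 9 thus touched a protein-coding gene, and none held more than 0.148% of its length in H3K79me2 peaks.

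The 10 windows with most covered bases ran from 29.1% to 44.9%, and 9 of them were gene-poor. The highest was chr8:113000001-114000000 with 44.9% and 1067 peaks, which lies partly over CSMD3. The windows chr8:111000001-112000000 with 35.1% and chr8:114000001-115000000 with 31.3% touch no protein-coding gene. SGCZ lies over chr8:14000001-15000000, with 32.7% and 924 peaks. So 4 of the 10 windows lay on chromosome 8, and 3 of these in the run of windows over CSMD3.

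The other windows lay over genes of the nervous system and development. ESRRG reaches into chr1:216000001-217000000, with 32.1%, and had 21.3% of its own record in H3K27me3 peaks. DACH1, a transcriptional cofactor gene, lies over chr13:71000001-72000000 with 30.9%. PTPRD lies over chr9:10000001-11000000 with 30.5%, and CADM2, a synaptic adhesion gene, over chr3:85000001-86000000 with 29.2%. Of the gene records, 39.5% of DACH1, 28.7% of CADM2 and 23.2% of PTPRD lay in H3K27me3 peaks, and each had under 1% in H3K79me2 peaks.

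In chr3:70000001-71000000, with 30.9%, neighbours differed. MDFIC2 had 32.1% of its record in H3K27me3 peaks and 0% in H3K79me2 peaks. FOXP1, a forkhead transcription factor gene that reaches into the window, had 0.225% of its record in H3K27me3 peaks and 65.9% in H3K79me2 peaks. The 10th window, chr20:59000001-60000000 with 29.1%, was the only gene-rich one, with 11 gene midpoints. Within it 42.3% of ZNF831, 38.5% of SYCP2, which encodes a protein of the synaptonemal complex, 25.8% of PHACTR3 and 2.58% of CDH26 lay in H3K27me3 peaks. H3K79me2 covered 4.34% of this window and up to 1.62% of the 9 others.

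The 10 windows with fewest covered bases held 861 to 1549 bp in 5 to 9 peaks each. No gene midpoint lay in 7 of them, and 9 of them had 206 to 484 kb in peak-free stretches of at least 100 kb. Whether reads can be placed in those stretches was not tested. The exception was chr8:127000001-128000000, with 1044 bp in 6 H3K27me3 peaks and no such stretch. It holds MYC, the growth-promoting transcription factor gene, and POU5F1B, and had 10.7% of its bases in H3K4me3 peaks and 27.4% in H3K79me2 peaks. MYC itself had 0% in H3K27me3, 100% in H3K4me3 and 82.5% in H3K79me2 peaks.

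The single lowest window was chr2:82000001-83000000, with no gene and 367 kb free of peaks. The only gene-rich one was chr7:63000001-64000000, with 1252 bp, 12 gene midpoints and 447 kb free of peaks, where ZNF722 had 1.24% of its record in H3K27me3 peaks. The window chr4:187000001-188000000 touches ZFP42, a transcription factor gene of pluripotent cells, which had 0% in peaks of all 3 marks. Around RGS17, a regulator of G-protein signalling, and MTRF1L, a mitochondrial release factor gene, chr6:153000001-154000000 held 1538 bp. RGS17 had 0.130% in H3K27me3 and 20.8% in H3K79me2 peaks, and MTRF1L had 0% and 100%.

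Sparse windows were of more than one kind. In the bottom 10%, 182 of 271 windows (67.2%) had a peak-free stretch of at least 100 kb, against 11 of 270 (4.07%) in the top 10% and 18.8% of all. Of the bottom 10%, 105 windows (38.7%) had no gene and 76 (28.0%) had at least 10% of their bases in H3K79me2 peaks. In the top 10% those shares were 17.8% and 18.1%, and over all windows 12.4% and 46.2%. Among sparse windows rich in H3K79me2, chr8:140000001-141000000 over TRAPPC9, PTK2 and AGO2 had 0.162% in H3K27me3 and 49.3% in H3K79me2 peaks. The gene-rich window chr21:43000001-44000000 with PDXK, AGPAT3 and PKNOX1 had 0.175% and 21.0%.

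Among gene-rich windows, those with fewest covered bases after these were 3 of chromosome 19 with many zinc finger genes, at 0.190%, 0.240% and 0.270%. They hold ZNF208 and ZNF431 (from 21000001), ZNF83 and ZNF600 (from 52000001), and ZNF568 (from 36000001). The gene-rich windows with most covered bases, after that of chromosome 20, were chr1:158000001-159000000 with 25.2%, which holds olfactory receptor genes. Next came chr6:32000001-33000000 with 19.9% over TNXB, NOTCH4 and C4A, chr2:130000001-131000000 with 18.7% and chr17:48000001-49000000 with 18.6%, which holds the HOXB cluster. C4A and the POTE genes of the chromosome 2 window have near-identical copies, so the placement of reads there is uncertain. The same holds for chr1:144000001-145000000 with SRGAP2B and NBPF15, which had 25.9% covered in 393 peaks of 419 bp median width and the highest fold of the list, 11.1.

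The authors' fold and q of each peak, which chose no member but come from the same peaks whose bases rank the windows, were higher in denser windows. Of all peaks, 26.9% had a −log10 q of at least 1.3, a q of about 0.05. From the least to the most covered step of 10% of windows, this share was 5.90%, 6.82%, 8.82%, 13.1%, 15.2%, 19.2%, 21.6%, 23.9%, 28.6% and 35.2%, higher at each step. The median fold was 2.51 in the bottom 10% and 2.86 in the top 10%, and the median width 165 bp, equal to the narrowest peak of the list, and 241 bp. The share of peaks in domains went from 0% to 66.8% and the median gap from 42544 to 486 bp. Width, gap and the share in domains are tied to the covered bases that rank the windows, so their course largely restates the ranking. A window with few covered bases has little room for a domain. In the 10 most covered windows, 39.5% to 53.1% of peaks had such a q, and in 9 of the 10 least covered windows none had. Sparse windows held scattered peaks, mostly near the smallest size, and few with such a q. The caller sets 1 scale of q for the whole list, and whether weak and scattered peaks are signal or background was not tested.

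**Figure D3:**
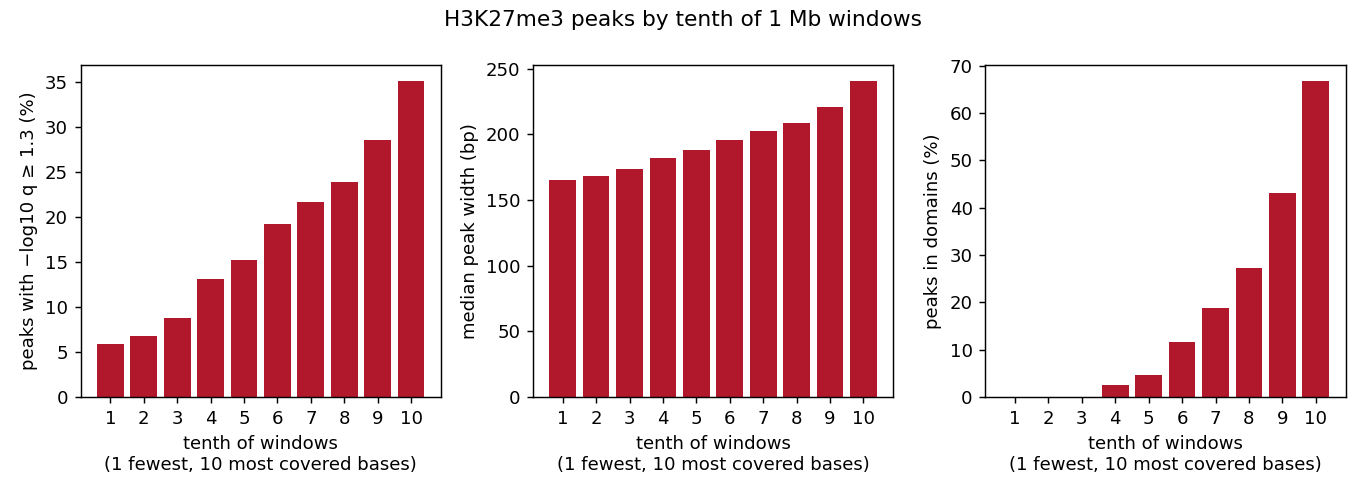
H3K27me3 peaks in steps of 10% of the 2703 windows, from fewest (1) to most (10) covered bases, with bars for the share of peaks with −log10 q of at least 1.3 (%), the median peak width (bp) and the share of peaks in domains (%). The bars go from 5.90% to 35.2%, from 165 to 241 bp and from 0% to 66.8%. Width and the share in domains are tied to the covered bases that rank the windows.

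Over all windows of a class, peak strength differed little between the classes of gene number. The share of peaks with a −log10 q of at least 1.3 was 27.6% in gene-poor, 26.3% in middle and 26.8% in gene-rich windows, and the median fold was 2.69 in each. Within the top 10% of windows that share rose with gene number, at 34.0%, 36.4% and 39.1%.

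Chromosome 4 stood apart from the other chromosomes. Its median window had 0.524% of bases in H3K27me3 peaks, against 1.23% on chromosome 13, the next lowest, and 2.82% on chromosomes 9 and 11, the highest. Of its 190 windows, 89 (46.8%) stayed under 0.5%, and 58 of the 271 windows of the bottom 10% lay there. It held 94 domains, fewer than the 105 of chromosome 18 with 77 windows. NEUROG2, a proneural factor gene of chromosome 4, still had 78.6% of its record in H3K27me3 peaks, and the ion channel gene GABRB1 had 28.6%, so the mark was present there in places. In the other lists, chromosome 4 had a median window of 1.93% for H3K4me3 and 4.62% for H3K79me2, against 2.90% and 8.71% over all windows. Chromosomes 13 and 18 had H3K79me2 medians of 3.96% and 3.73%, below that of chromosome 4, and more H3K27me3. Chromosome 7 lay at the other end, with a mean of 5.66%, 461 domains and 14 of at least 100 kb, and chromosome 8 had 18 domains of at least 100 kb. 

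**Figure D4:**
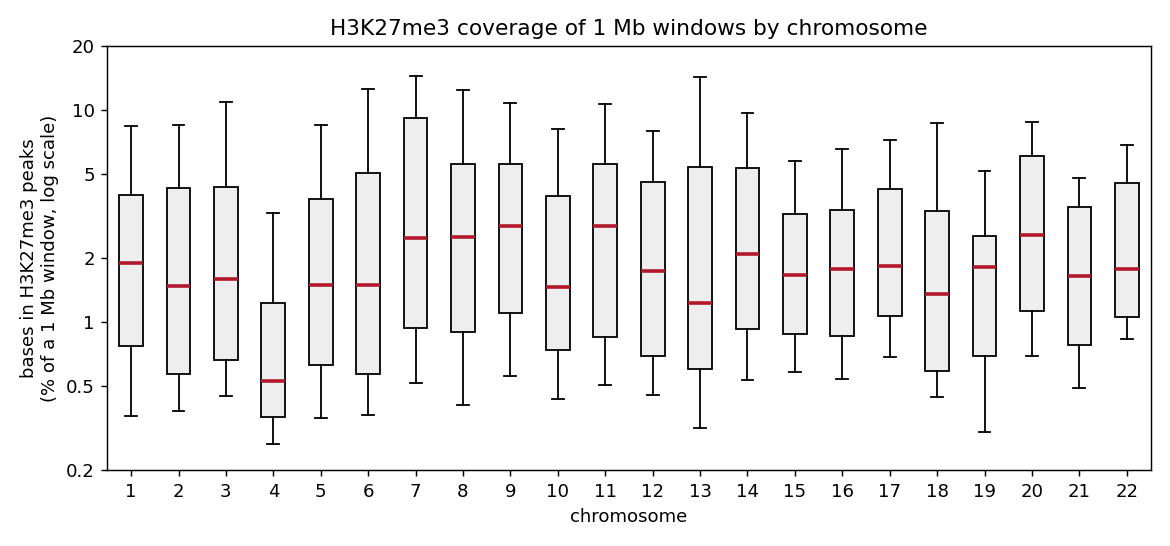
Bases in H3K27me3 peaks (vertical axis, % of a 1 Mb window, log scale) for the kept windows of each chromosome, with the median as a red line, the quartiles as a box and the 10th and 90th percentiles as whiskers. Chromosome 4 has the lowest median, 0.524%, and chromosomes 9 and 11 the highest, 2.82%.

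Basal epithelial genes carried little H3K27me3 in their records. Among 18889 protein-coding genes in kept windows, 6.03% had their midpoint in the top 10% of windows and 3.91% in the bottom 10%, and of 19126 genes 48.3% had no base in H3K27me3 peaks. Of 17 basal epithelial genes, 0 lay in the top 10% and 2, the desmosome genes DSC3 and DSG3, lay in the bottom 10%. Against 6.03% of all genes, 0 of 17 in the top 10% is a small difference, and the list matched all genes in the top 20% of windows, with 17.6% against 17.4%, and in the top 10% of shifted windows, with 5.88% against 5.78%. KRT14, KRT17 and TRIM29 lay in the top 20%. Of the 17 genes, 10 (58.8%), such as the basal keratin genes KRT5 and KRT14, had no base in H3K27me3 peaks, against 48.3% of all genes. KRT17 had the largest share, 2.16% of its record, followed by the integrin gene ITGB4 with 0.525%, and TP63, the master regulator of basal epithelium, had 0.276%. The other members with any were ITGA6 with 0.455%, EGFR with 0.372%, CDH3 with 0.198% and LAMA3 with 0.149%.

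As a check of the labelled cells, all 10 basal markers had bases in H3K4me3 and in H3K79me2 peaks. Of 5 luminal markers 4 had H3K4me3 and 3 had H3K79me2, of 4 fibroblast markers 2 and 1, of 3 immune markers 1 and 0, and of 2 endothelial markers 1 and 1. The largest H3K27me3 share of a record was 2.16% among basal markers, 6.31% among luminal, 13.3% among fibroblast and 10.8% among immune markers. Peaks give no share of cells, and the part of other cells in the library was not tested.

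Genes that every cell uses had few bases in H3K27me3 peaks, with 16 of 19 housekeeping genes at none, against 48.3% of all genes, among them ACTB and ACTG1. Their median record was 5.28 kb, against 24.5 kb over all genes, and the shares with none were not matched for length. Of 18 in kept windows, 0 lay in the top or the bottom 10%, while 16.7% lay in the top 20%, against 17.4% of all genes, and 5.88% in the top 10% of shifted windows, against 5.78%. Their place among windows was thus near that of all genes. EEF1A1, the translation elongation factor gene, had 4.07% and the succinate dehydrogenase gene SDHA 0.654%. Of 20 cell cycle genes, 1 (5%) lay in the top 10%, against 6.03% of all genes. No H3K27me3 base lay in 14 of them (70%), such as the mitotic kinase genes AURKA and AURKB, against 48.3% of all genes. The highest in that list were the helicase subunit gene MCM3 with 0.950% and the topoisomerase gene TOP2A with 0.912%. Their median share in H3K79me2 peaks was 89.4% for housekeeping and 65.0% for cell cycle genes, against 13.2% for all genes.

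Long neuronal adhesion and synaptic genes were found at both ends of the scale. Of 65 in kept windows, 16 (24.6%) lay in the top 10% and 8 (12.3%) in the bottom 10%, against 6.03% and 3.91% of all genes. Other genes of 500 kb or more also had larger shares than all genes at both ends, with 13.1% and 9.16% of 251. For the 48 list members of that length the shares were 25% and 6.25%. The place at both ends was thus not particular to this list. The protocadherin gene PCDH17 had 73.1% of its record in H3K27me3 peaks, SGCZ 33.7%, the potassium channel gene KCND2 27.7%, ERBB4 22.1% and CNTNAP2 16.5%. The cadherin gene CDH9 had 0%, CDH18 0.218%, PCDH7 0.273%, PCDH9 0.324% and the receptor phosphatase gene PTPRT 0.486%. PTPRT and PTPRD, members of the same phosphatase family, thus differed, with 0.486% and 23.2%. In all of these named genes H3K79me2 covered less than 1% of the record, so low H3K79me2 went with high as well as low H3K27me3.

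Long genes varied widely in coverage. Of all protein-coding genes, 8.06% had at least 10% of their record in H3K27me3 peaks and 72% had less than 1%. Of the 303 of 500 kb or more, 51 (16.8%) had at least 10% of their record in H3K27me3 peaks and 135 (44.6%) had less than 1%. Among the 50 of them on the neuronal list, 13 (26%) and 14 (28%) did so, and among the 253 others 38 (15.0%) and 121 (47.8%). Among 18823 shorter genes, 7.92% and 72.4% did so, so long genes were more often well covered and less often nearly bare. Across the 303 long genes Spearman's rho of H3K27me3 and H3K79me2 shares was −0.48, a description over genes, which share a library and are not independent replicates.

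Developmental transcription factor genes were often covered as single genes. Of 91, 12 (13.2%) lay in the top 10% and 1 (1.10%) in the bottom 10% of windows, against 6.03% and 3.91% of all genes. The median share of the list in H3K27me3 peaks was 1.91%, against 0.161% over all genes, and the upper quartile 18.1%, against 1.28%. No base lay in peaks in 36 of the genes (39.6%), against 48.3% of all genes, with a median record of 6.70 kb against 24.5 kb. The neuronal factor gene NEUROD2 had 91.1% of its record in H3K27me3 peaks and OLIG2, a factor gene of oligodendrocytes and motor neurons, 90.2%. PAX3, of neural crest and muscle, had 67.6%, OTX2, of the forebrain, 49.2%, and GATA4, of heart and endoderm, 40.1%. The H3K79me2 share was 0% in these 5 genes. DLX1 and DLX2, of forebrain interneurons, had 0% in H3K27me3 peaks and 44.5% and 58.7% in H3K4me3 peaks. NEUROG2 with 78.6% and 73.5%, and OLIG1 with 68.4% and 79.4%, had large shares of both H3K27me3 and H3K4me3.

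The HOX genes, which set position along the body axis, differed between and within their clusters. Of 39, 19 (48.7%) lay in the top 10%, all of them HOXB and HOXD genes in 2 windows, and with windows shifted by 500 kb this share was 0%. HOXB9 had 88.5% and HOXB8 88.4% of their records in H3K27me3 peaks, while HOXB1, HOXB2 and HOXB5 had 0%. HOXD13 had 45.1% and its neighbour HOXD12 had 0%. In the HOXA cluster, HOXA13, at its outer end, had 52.0%, and HOXA2 to HOXA7 had 0%. HOXA2 and HOXA5 had 100% of their records in H3K4me3 peaks. In the HOXC cluster, the gene with any H3K27me3 base was HOXC12, with 4.07%. Over the list 25 of 39 genes (64.1%) had none, against 48.3% of all genes, and the median of the list was 0%. HOX records are short, with a median of 3.8 kb against 24.5 kb over all genes, and these shares were not matched for length.

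Olfactory receptor genes, which are silent outside the nose, had 95 of 356 members (26.7%) in the top 10% and 0 in the bottom 10%. Over all genes these shares were 6.03% and 3.91%. The median share of the list in H3K27me3 peaks was 1.57%, against 0.161% over all genes. No H3K27me3 base lay in 185 of 389 (47.6%), close to the 48.3% of all genes. OR6C70 had 100% and OR2Y1 98.7% of their short records in peaks, and OR10A3 and OR10A4 had 0%. These genes sit in clusters, so they share windows and are not independent points.

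Genes named ZNF with a number, mostly zinc finger repressors in clusters, had the largest share in the bottom 10% of the 15 lists, 100 of 446 (22.4%), against 3.91% of all genes. In the top 10% lay 15 (3.36%), against 6.03% of all genes. No H3K27me3 base lay in 302 of 467 (64.7%), against 48.3% of all genes, and the median H3K79me2 share of the list was 28.8%. ZNF831 with 42.3% and ZNF334 with 28.5%, both on chromosome 20, were the highest, and ZNF10 and ZNF101 had 0%.

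The genes of 5 other clusters lay outside both the top 10% and the bottom 10%, which hold 6.03% and 3.91% of all genes. The epidermal differentiation complex, the cluster of cornified envelope genes, had 0 of 24 genes in the top 10%, and all 24 lay in the top 20%, which holds 17.4% of all genes, but these genes share 2 windows. S100A7 had 51.3% and TCHH 37.9% of their records in H3K27me3 peaks, and IVL, the involucrin gene, and HRNR had 0%. Of 94 keratin-associated protein genes of hair, 0 lay in the top 10% and 68.1% in the top 20%, with all 94 in 7 windows. KRTAP9-4 had 70.2% and KRTAP9-8 59.3%. The 53 clustered protocadherin genes of neuronal identity reached 6.83% in PCDHB12 and 6.71% in PCDHB10. The 25 taste receptor genes reached 73.6% in TAS2R7 and 48.0% in TAS2R39, and 16 (64%) had none, against 48.3% of all genes. Of 17 type I interferon genes, 14 (82.4%) had none, and IFNA14 had 30.6% and IFNA2 15.8%. The median record was 1.075 kb for taste receptor genes and 0.98 kb for type I interferon genes, against 24.5 kb over all genes. Short records such as these can be filled by a single peak and can also lie between peaks, and the shares with none were not matched for length.

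The genes of the Polycomb complexes themselves had 3 of 21 members (14.3%) in the top 10%, against 6.03% of all genes, and all 3 lay in 1 window. Of these, CBX2 had 2.13% of its record in H3K27me3 peaks and CBX8 had 0%. BMI1, a subunit of PRC1, had 12.8%. The solute carrier genes, taken as a broad class of membrane transporters, had 13 of 332 (3.92%) in the top 10% and 7 (2.11%) in the bottom 10%. Both shares lay below the 6.03% and 3.91% of all genes. Highest among them were the vesicular glutamate transporter gene SLC17A7 with 33.2% and the vesicular GABA transporter gene SLC32A1 with 32.7%.

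**Figure D5:**
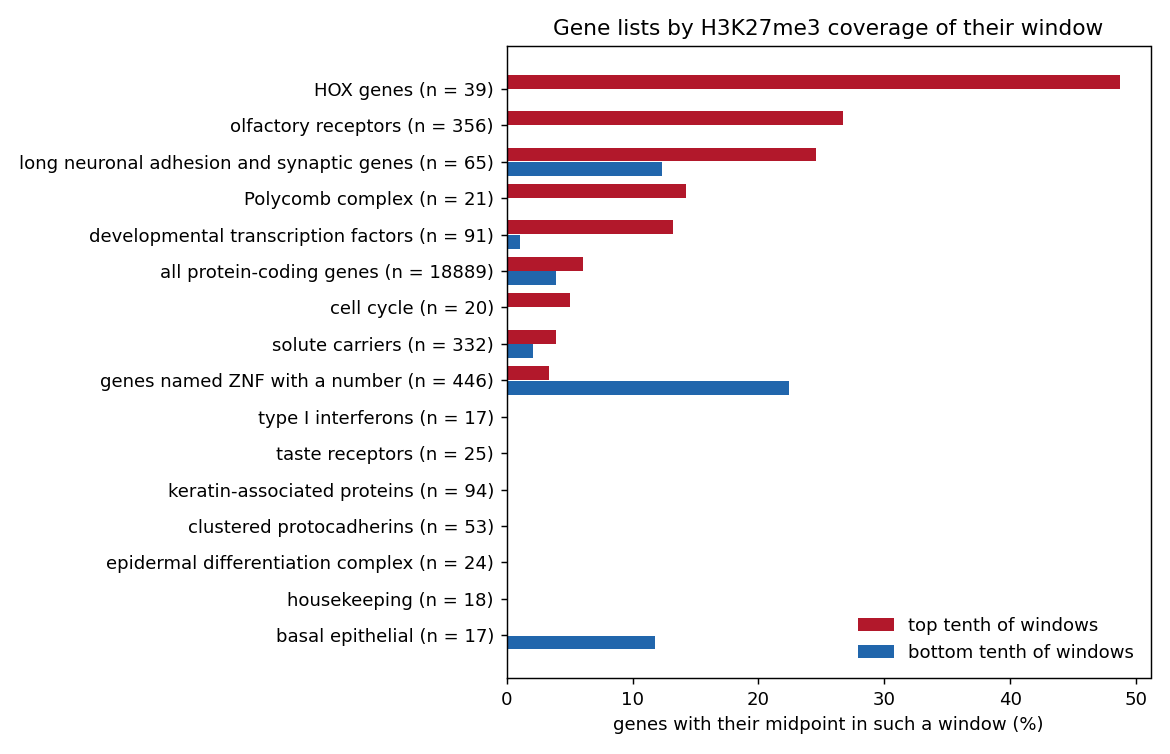
Share of the genes of each list (%, horizontal axis) with their midpoint in the top 10% (red) and bottom 10% (blue) of windows by covered bases, with the number of genes in kept windows beside each name. HOX genes have the largest share in the top 10%, 48.7%, all in 2 windows, and ZNF genes the largest in the bottom 10%, 22.4%, while all protein-coding genes have 6.03% and 3.91%.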

How the data were processed

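ChIP-seq peak lists of 3 marks in MCF10A were used, 1 library each, with H3K27me3 as the subject. The tools listed in the submitters' processing notes are the aligner Bowtie2 2.3.1 and the peak caller MACS2 2.1.1, and the build listed there is hg38. A p threshold of 0.05 stands in the names that the authors gave the peaks. Each deposited fold is the ratio of a peak to the background the caller estimated, and each deposited −log10 p and −log10 q comes from the caller. The role of the input and the handling of duplicate reads are not given in the sources used here. A peak list does not show the depth of its library, and no counting interval was computed.

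Peaks were called per library and overlapping bases were counted once. Covered bases were summed in 1 Mb windows, gene records and domains with Python 3.11.15, numpy 2.4.6 and pandas 2.3.3, and the interval code was tested on simulated peaks. Genes and promoters came from RefSeq tables of GRCh38.p14, the build of the peaks. Of 59792 genes, 19126 were protein-coding on chromosomes 1 to 22, and 18889 had their midpoint in a kept window. No genome sequence was used.

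The genes named are up to 4 of each of the 10 most and 10 least covered windows and of the 10 longest domains, the longest records first, the 2 highest and 2 lowest of each of 15 gene lists, ties alphabetical, and basal epithelial genes with any covered base. Promoters shown are the 3 with most bases in H3K27me3 peaks among genes of those windows and domains, ties by position, and 1 of a least covered window. Only genes with an annotated promoter could be taken, and chromosome 8 had none. A few genes chosen this way are not reported here. Other genes, those of runs, of the windows of each gene class and further list members, were named after their values were seen. The members and lists were chosen with earlier results of these data known. Alternatives were other window sizes and origins, window and peak filters, gene classes and joining rules.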

Additional observations from a re-analysis of the deposited data

How the results depend on the processing

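No paired analysis was possible because each mark has 1 library. For the same reason no library was left out, and no result has a replicate check.

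The median coverage of a window (1.68%) was 1.28% in 500 kb windows, 2.14% in 2 Mb windows and 1.67% in shifted windows. It was 1.501% over all complete windows, 2.17% over windows with no peak-free stretch of 100 kb and 1.87% without chromosome 4, an alternative chosen after seeing the data. It was 0.416% with peaks of −log10 q of at least 1.3, 0% with peaks of at least 5-fold and 0.476% with peaks of at least 300 bp.

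The gene-poor minus gene-rich difference in percentage points was −0.991 for medians and 1.13 for means. In the following pairs the median comes first. In 500 kb windows it was −0.632 and 1.32, in 2 Mb windows −1.67 and 0.591, and in shifted windows −0.877 and 1.01. Over all complete windows it was −1.31 and 0.545, and without chromosome 4 −0.740 and 1.47. With no peak-free stretch in the window the medians reversed, 1.41 and 3.25, over 550 of 927 gene-poor and 595 of 619 gene-rich windows, a choice that removes sparse windows by construction. With the q filter it was −0.480 and 0.411, and with peaks of at least 300 bp −0.561 and 0.526. With peaks of at least 5-fold the means reversed, −0.0336 and −0.0452, and the cause was not tested. For 0 against 20 or more genes it was −1.69 and 0.243, for the lowest and highest 20% of windows by protein-coding bases −0.579 and 0.342, and for those by all RefSeq genes −1.27 and 1.21.

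The 4670 domains with 40.2% of peaks became 364 with 1.90% at a gap of 500 bp, 1822 with 11.5% at 1000 bp, 2915 with 38.6% at 5000 bp and 948 with 28.1% at 10000 bp. A minimum of 5000 bp gave 7859 with 47.8% and one of 20000 bp gave 2219 with 29.3%. No minimum filled share gave 6923 with 48.6% and one of 50% gave 495 with 6.05%. The q filter gave 1731 with 28.2% and peaks of at least 300 bp gave 2063 with 32.2%. These last shares are of the peaks that passed the filter.

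Of the 10 most covered windows, 5 were met again in 500 kb windows, 7 in shifted windows, 7 with the q filter and 10 over all complete windows. For the 10 least covered these counts were 4, 6, 0 and 0, the last 2 where 181 and 102 windows held no covered base. The top minus bottom 10% difference in the share of peaks with −log10 q of at least 1.3, 29.3 points, was 28.1 with windows ranked by peak number. The lists with a larger share in the top class than all genes were 5 of 15, 8 where the top class was 20% of windows and 8 with shifted windows.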
